A study of Mus musculus with 6 samples.

Results

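The imprinted Dlk1-Dio3 locus of mouse chromosome 12 carries one of the densest groups of miRNA genes in the genome, and the data described here are the counts of its miRNAs in exosomes. Its members were the rows of the count table whose Ensembl identifier is a miRNA gene of GENCODE M21 in the locus, on either strand. There were 58 such rows of 1973 in the table, spread over 203.4 kb of GRCm38 (chromosome 12, 109544541 to 109747960), with 53 on the plus strand and 5 on the minus strand. The exosomes came from the culture medium of HN9.10e cells, an immortalized wild-type line of mouse embryonic hippocampal cells grown with fetal bovine serum. Control cells received no treatment and the treated cells received 100 nM ceramide, a membrane sphingolipid, and in both groups exosomes were isolated after 48 h. Small RNA was sequenced in 3 libraries per group with total counts of 800810 to 2760015. The paper speaks of biological replicates and the labels name no separate cultures, so the p-values measure the spread between these libraries, which may in part be technical. Replicate 1 of both groups was labelled lane 1, control replicates 2 and 3 lane 4, and ceramide replicates 2 and 3 lane 2, so in replicates 2 and 3 lane and treatment cannot be told apart.

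In the embryo and the brain, the noncoding RNAs of this locus are made from the maternal chromosome, while Dlk1, Rtl1 and Dio3 are expressed from the paternal one. The miRNAs are cut from long maternal transcripts, which include Meg3, the antisense transcript of Rtl1, Rian and Mirg. A miRNA finds its targets mainly through its seed, bases 2 to 8 of the mature strand, and in neurons several miRNAs of the Mirg segment are known to take part in the growth of dendrites and in synaptic adjustment.

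The mature sequences below are those of the members on which the results turn, from the RefSeq miRNA table for GRCm38.p6. Each is written 5′ to 3′ with its seed in capitals. They are the member that passed the test (miR-381) with its near relative miR-300, the members set apart by the third replicate (miR-433 and miR-667), and the members with the highest levels (miR-541, miR-382 and miR-127).
miR-381-5p: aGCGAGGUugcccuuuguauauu
miR-381-3p: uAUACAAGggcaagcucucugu
miR-300-3p: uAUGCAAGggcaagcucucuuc
miR-433-5p: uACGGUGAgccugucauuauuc
miR-433-3p: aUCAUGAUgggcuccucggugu
miR-667-5p: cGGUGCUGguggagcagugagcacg
miR-667-3p: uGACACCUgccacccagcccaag
miR-541-5p: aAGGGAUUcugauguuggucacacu
miR-382-5p: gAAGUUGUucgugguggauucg
miR-127-3p: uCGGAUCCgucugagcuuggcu

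The miR-381-3p and miR-300-3p sequences differ at 3 of 22 bases, counted from 1 at the 5′ end (A4G, G21U and U22C). The first of these differences lies in the seed, so the seeds of this pair are not the same. Among the 58 members, 56 had a RefSeq mature sequence at their place, on either strand. Together these places held 109 mature miRNAs with 101 distinct seeds, and 8 seeds were shared between members. The 109 include mature miRNAs of overlapping genes without a row of their own, such as Mir409 at the place of Gm24321. Seeds with at most 2 G or C bases made up 22.0% of the 109, against 15.2% of the 1679 mature miRNAs in the whole table. A few members shared a seed with a named member, as the next set shows for miR-379 with miR-1193 and with miR-411.
miR-379-5p: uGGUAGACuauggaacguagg
miR-1193-5p: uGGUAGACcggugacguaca
miR-379-3p: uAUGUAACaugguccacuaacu
miR-411-3p: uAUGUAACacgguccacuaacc

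The partners were carried at unlike levels. A level is given here in CPM, the counts of a row scaled to a common library size, after trimmed mean of M-values (TMM) normalization, which aligns the libraries on the bulk of their rows. The count of a row adds the 5p and 3p strands of 1 hairpin and was not divided by its length. The mean over 6 libraries was 31.1 CPM for Mir379, 18.0 CPM for Mir411 and 1.51 CPM for Mir1193. Mir494 and Mir410, whose 5p strands also share a seed, stood at 29.1 and 1.51 CPM. Outside the locus, miR-329-3p has the seed of miR-362-3p.

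Most members of the locus had a count in the exosomes, each at a low level. Of the 58 members, 51 had a count, 41 of them in all 6 libraries, and the lowest total among the 51 was 1 count. The other 7 (Mir1906-1, Mir3070b, Mir432, Gm23912, Mir882, Gm27379 and Mir453) had none, and 3 counts over the pooled libraries would be 0.313 CPM, which is the limit that a count of 0 allows. The members summed to 6957 of 9591121 counts, or 0.0725%. The highest was Mir541 at 84.4 CPM, followed by Mir382 at 79.6 CPM and Mir127 at 53.4 CPM. Mir541 ranged from 77.6 to 97.0 CPM over the libraries and Mir382 from 66.4 to 94.6 CPM. The levels of this pair did not separate beyond their spread. Mir127, which lies opposite an exon of Rtl1, ranged from 45.1 to 61.1 CPM and was below both in every library.

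The next levels lay close together. Mir329 had 41.3 CPM, Gm24321 36.8 CPM, Mir300 36.4 CPM and Mir369 36.4 CPM. Mir667 at 31.2, Mir379 at 31.1, Mir494 at 29.1, Mir433 at 25.8 and Mir381 at 22.9 CPM completed the 12 highest, which held 70.1% of the counts of the locus. The member at the median level was Mir673 with 5.26 CPM.

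**Figure D1:**
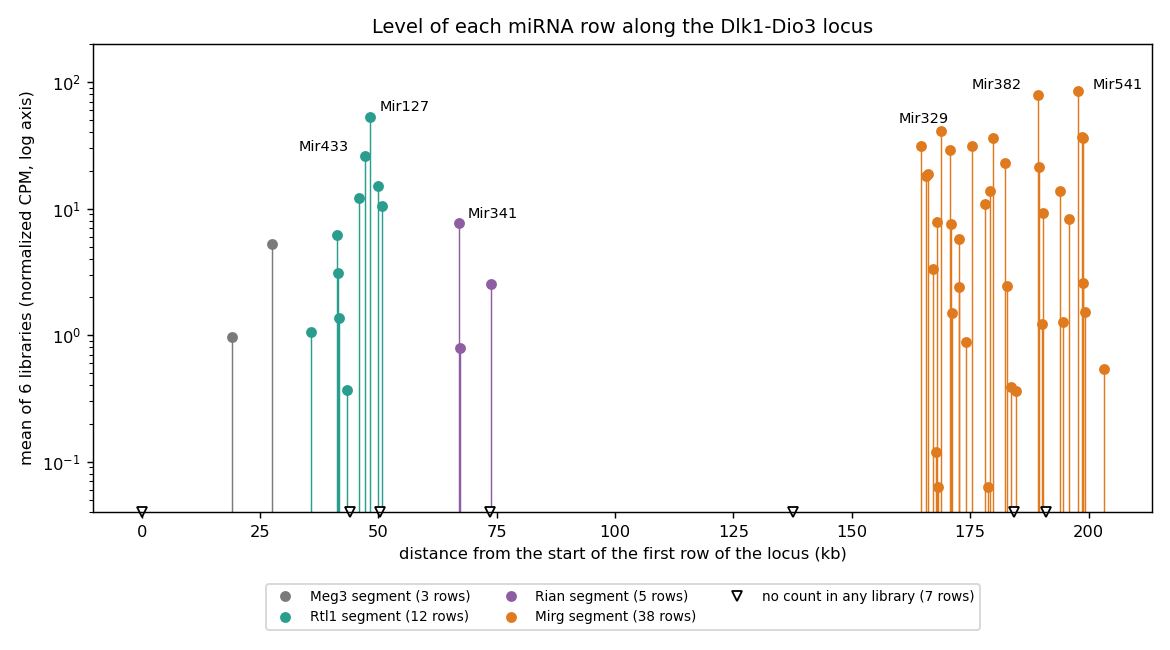
Mean level of each of the 58 rows over the 6 libraries (normalized CPM, log axis) against the distance from the start of the first row in kb. Colors give the segments, and the 7 open triangles at the bottom axis mark rows with no count. The high rows sit in the Rtl1 and Mirg segments, with Mir541 at 84.4 CPM and Mir127 at 53.4 CPM.

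The counts were not spread evenly along the locus. The Mirg segment, with 38 members, held 79.7% of the locus counts and the Rtl1 segment, with 12 members, 17.8%. The Rian segment (5 members) held 1.57% and the Meg3 segment (3 members) 0.877%. In the Rian segment Mir341, in an intron of Rian, was the only member with enough counts for a test. None of the Meg3 segment could be tested.

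Some rows stand for a place rather than a strand. For 7 members GENCODE has an overlapping miRNA gene on the other strand that has no row of its own in the table, and how the counting used strand is not given in the sources used here. Gm24321 on the minus strand, with 348 counts, overlaps all 79 bases of Mir409 on the plus strand. The RefSeq table has mature miRNAs at this place on the plus strand only, of which miR-409-3p is shown here. Mir3071 (94 counts) lies opposite Mir136, and miR-3071-3p and miR-136-5p overlap over 20 bases on opposite strands. Mir299b (174 counts) lies opposite Mir299a, and both mature strands of miR-299b are contained in those of miR-299a, over 18 bases for the 3p and 21 bases for the 5p strand. Reads of these lengths from miR-299a and miR-299b therefore cannot be told apart by sequence.
miR-409-3p: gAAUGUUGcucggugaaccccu
miR-136-5p: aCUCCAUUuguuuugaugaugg
miR-3071-3p: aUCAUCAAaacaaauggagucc
miR-299a-5p: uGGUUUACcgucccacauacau
miR-299b-5p: gGUUUACCgucccacauacau

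Gm25252 (128 counts) lies opposite Mir376a in the same way, Gm25750 (32 counts) opposite Mir380, Mir337 (57 counts) opposite Mir3544 and Mir539 (5 counts) opposite Gm44322. The values of these rows are given below under the name of the row and cannot be assigned to one strand.

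The first question was whether ceramide changed how much of the exosomal miRNA came from the locus. The share of all counts on the 58 members was 0.0772%, 0.0765% and 0.0765% in control replicates 1, 2 and 3, and 0.0658%, 0.0677% and 0.0740% in ceramide replicates 1, 2 and 3. The controls lay close together, and all 3 ceramide values were under the lowest of them. The mean was 0.0768% ± 0.000415 in controls and 0.0692% ± 0.00426 with ceramide (SD, n = 3 each), and the two-sided exact permutation p of 0.1 is the smallest that 3 libraries against 3 can give. With the libraries paired by replicate number the exact p was 0.25, again the smallest possible. The exact 95% binomial interval was 0.0603% to 0.0717% in ceramide replicate 1 and 0.0705% to 0.0775% in ceramide replicate 3, and the latter overlapped the intervals of the controls. These intervals cover counting error only.

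The lower share depended on how the libraries were scaled. After TMM normalization the summed level of the locus was 749, 758 and 735 CPM in the controls and 685, 708 and 740 CPM with ceramide. The groups then overlapped (748 ± 11.4 against 711 ± 27.9 CPM, exact permutation p = 0.2). With the size factors of DESeq2 the difference of the shares was 3.96e-05 percentage points, in favor of ceramide. The counts are relative, and the exosomes were measured in bulk. Fewer exosomes with these miRNAs, fewer copies per exosome and more counts on other rows therefore cannot be told apart.

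**Figure D2:**
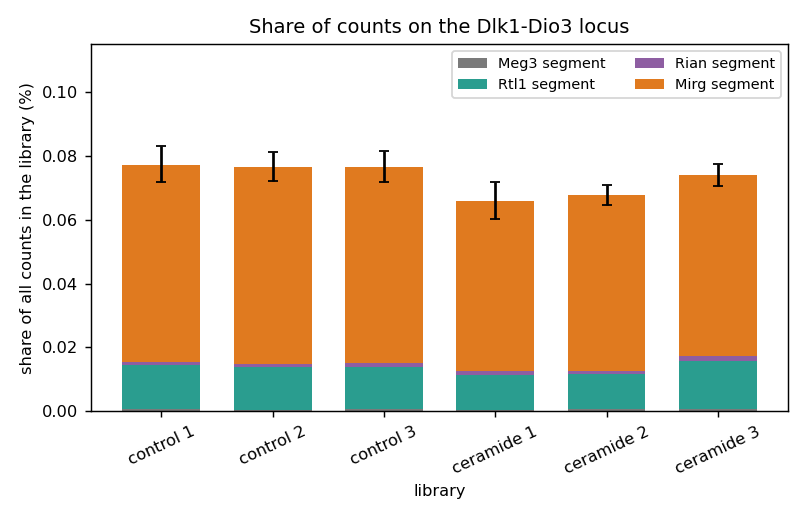
Share of all counts (%) on the locus in each library, stacked by segment. Error bars are exact 95% binomial intervals of the whole share. The control bars stand at 0.0765% to 0.0772% and the ceramide bars at 0.0658% to 0.0740%.

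Most of the difference lay in the Mirg segment, which also held 79.7% of the locus counts. Its summed level after TMM normalization was 601, 612 and 590 CPM in the controls and 554, 575 and 568 CPM with ceramide. The groups did not overlap on this scale (601 ± 11.2 against 565 ± 10.8 CPM, exact permutation p = 0.1, the smallest possible). The level of this segment with the size factors of DESeq2 is not given here. The Rtl1 segment stood at 133, 132 and 128 CPM in the controls and at 114, 114 and 152 CPM with ceramide. Ceramide replicate 3 was here above all other libraries. The log2 ratio of Mirg to Rtl1 counts was 2.20 ± 0.0203 in controls and 2.17 ± 0.236 with ceramide (exact permutation p = 1). The ratio in ceramide replicate 3 was 1.90, below the 2.28 and 2.33 of the other 2 ceramide libraries, and without that library the difference turned from -0.03 to 0.10.

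In the test of single rows, 26 of the 58 members passed edgeR's filter on low counts. They held 93.7% of the locus counts and ranged from 7.57 CPM (Mir679) to 84.4 CPM, while the highest member left out, Mir337, had 6.21 CPM. All 26 lay below the median level of the 418 rows tested, 107 CPM. A row was called when the adjusted p (edgeR's quasi-likelihood test, Benjamini-Hochberg over the 418 rows) was at most 0.05 and the log2 fold change at least 0.6 in size. Of the 26 members 1 was called, or 3.85%, against 11.5% of all rows tested. The called member was Mir381, lower with ceramide, a direction in which 8.37% of all rows were called. No member was called higher, against 3.11% of all rows. Without the fold threshold, Mir381 was still the only member with an adjusted p at or under 0.05, while 19.9% of all rows had one. Positive log2 fold changes were seen for 8 members and negative ones for 18, and over all rows 49.3% were positive. The median log2 fold change of the members was -0.13, against -0.01 over all rows.

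The changes were small or imprecise. The log2 fold changes ran from -0.81 to 0.89, and 22 of 26 lay within 0.6 of 0. The whole 95% interval lay within 0.6 of 0 for 8 members, and for the other 18 a change as large as the threshold is inside the interval. The 8 were Mir369, Mir299b, Mir134, Mir127, Gm24321, Mir379, Mir541 and Mir411. Among all rows tested the same held for 33.3%. The median half-width of the interval was 0.493 for the members and 0.395 for all rows.

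**Figure D3:**
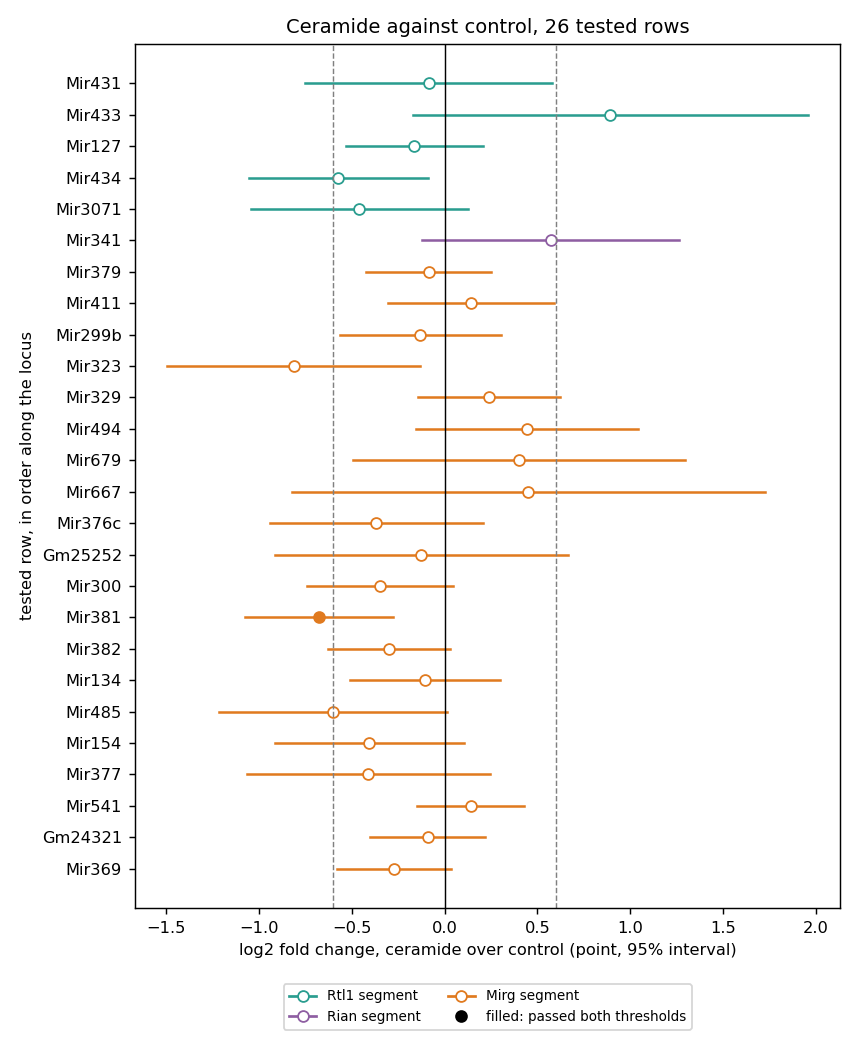
Log2 fold change, ceramide over control, of the 26 tested rows in order along the locus. Lines are 95% intervals, dashed lines mark the threshold of 0.6, and the filled point passed both thresholds. The filled point is Mir381 at -0.68, and the widest intervals belong to Mir667 and Mir433.

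Mir381 (ENSMUSG00000098838, chromosome 12, 109726822 to 109726896, plus strand) lies between Rian and Mirg and within no host gene of GENCODE M21. The miRNA is known from dendrite growth in hippocampal neurons. Its level was 27.9, 29.9 and 25.6 CPM in control replicates 1, 2 and 3 and 22.1, 16.7 and 15.3 CPM in ceramide replicates 1, 2 and 3. The groups were separate, and the smallest step was that of replicate 1. The mean fell from 27.8 ± 2.13 to 18.0 ± 3.58 CPM (SD, n = 3), with a log2 fold change of -0.68 (SE 0.20, 95% interval -1.07 to -0.28, edgeR adjusted p = 0.0441). The row rests on 202 counts in all.

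The call of Mir381 stood near its threshold. It was also made with the replicate number as a block (log2 fold change -0.70, edgeR adjusted p = 0.0107), with limma-voom and with library size alone. Without ceramide replicate 1 the edgeR adjusted p was 0.0209. Leaving out any one of the other 5 libraries ended the call, with edgeR adjusted p between 0.0845 (without control replicate 3) and 0.175 (without ceramide replicate 2). DESeq2, the tool named in the study's methods, gave a log2 fold change of -0.59 and an adjusted p of 0.248, which was no call. With lane as a term, where the effect rests on the lane 1 pair, the log2 fold change was -0.34.

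Mir300, whose 3p strand resembles that of Mir381, was the other member of this pair. Its level was 40.9, 34.8 and 46.8 CPM in the controls and 31.2, 29.5 and 35.3 CPM with ceramide, and the groups overlapped by a single pair of libraries. The log2 fold change was -0.35 (SE 0.16, edgeR adjusted p = 0.177). The ratio of Mir381 to Mir300 counts was 0.696 ± 0.156 in controls and 0.569 ± 0.137 with ceramide, and this difference did not exceed the spread (exact permutation p = 0.5).

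The groups did not overlap for 7 of the 26 members (26.9%), against 39.2% of all rows tested. Mir341 was the one higher with ceramide, against 14.1% of all rows. Mir369, Mir323, Mir381, Mir434, Mir377 and Mir3071 were lower (23.1% of the members, against 25.1% of all rows). An unadjusted p under 0.05 was reached by 3 members (Mir323, Mir381 and Mir434) and by 36.6% of all rows. Other members with strongly negative values had low counts. Mir323, of the Mirg segment, had 11.98, 10.7 and 7.32 CPM in the controls and 6.50, 6.44 and 4.26 CPM with ceramide. Its log2 fold change was -0.81 (SE 0.35, edgeR adjusted p = 0.0958), the most negative of the members, on 69 counts. Mir485, a miRNA known to act at synapses, had 12.97, 7.82 and 13.2 CPM against 5.20, 6.82 and 8.94 CPM, with overlap (log2 fold change -0.60, SE 0.31, edgeR adjusted p = 0.192).

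The miRNAs antisense to Rtl1 had log2 fold changes of both signs, and differences between them were not tested. The maternal miRNAs at this place, Mir431, Mir433, Mir127, Mir434 and Mir136, are perfectly complementary to the Rtl1 transcript and are known to direct its cleavage. Mir127 was at 59.9, 61.1 and 47.6 CPM in the controls and 54.6, 45.1 and 51.9 CPM with ceramide, a log2 fold change of -0.16 (SE 0.16, edgeR adjusted p = 0.454). Mir434 was at 19.96, 17.8 and 16.8 CPM against 10.4, 12.9 and 12.3 CPM, without overlap (log2 fold change -0.57, SE 0.24, edgeR adjusted p = 0.0925). Mir431 was at 11.98, 13.5 and 13.2 CPM against 6.50, 12.1 and 15.3 CPM, and its ceramide libraries lay on both sides of the controls. The row of Mir3071, opposite Mir136, was at 11.98, 12.8 and 10.98 CPM against 10.4, 7.57 and 8.94 CPM (log2 fold change -0.46, SE 0.30, edgeR adjusted p = 0.222). None of these 4 passed the test, and their log2 fold changes were all negative, with -0.09 for Mir431.

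Mir433, the remaining one of these, had the highest log2 fold change of the locus and a strong dependence on the replicate. Mir433 (ENSMUSG00000070072, chromosome 12, 109591715 to 109591838, plus strand) lies opposite an exon of Rtl1. Its level was 14.0, 13.5 and 27.8 CPM in control replicates 1, 2 and 3 and 19.5, 26.1 and 54.1 CPM in ceramide replicates 1, 2 and 3. The groups overlapped because control replicate 3 was above 2 of the ceramide libraries, yet each ceramide library exceeded the control of its own number. Without the block the log2 fold change was 0.89 (SE 0.45, edgeR adjusted p = 0.200), which was no call. With the replicate number as a block it was 0.89 (SE 0.20, edgeR adjusted p = 0.00361), which passed both thresholds. Over the 26 members, same-numbered libraries deviated together in replicates 1 and 3 (r = 0.37 and 0.70) and not in replicate 2 (r = -0.04). For replicate 1 this was not particular to the number. Control replicate 1 with ceramide replicate 2 had r = 0.43, and control replicate 2 with ceramide replicate 1 had r = 0.40. The block called 2 members, Mir381 and Mir433, and 20.8% of all rows tested. Mir382 also reached an adjusted p of 0.0351 in that fit, at a log2 fold change of -0.32, under the fold threshold.

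Mir667, of the Mirg segment, showed the replicate pattern more strongly and no common direction. Its level was 19.96, 22.8 and 38.8 CPM in the controls and 12.99, 27.3 and 65.6 CPM with ceramide. Replicate 1 was lower with ceramide, replicates 2 and 3 were higher, and the log2 fold change of 0.45 (SE 0.54, edgeR adjusted p = 0.560) became -0.30 without ceramide replicate 3. Replicate 3 was the highest library of both groups in 5 of the 26 members (Mir667, Mir433, Mir485, Mir341 and Mir300), or 19.2%, and in 27.3% of all rows tested. By the mean log2 excess of replicate 3 over the other replicates, Mir667 ranked 13 and Mir433 26 of the 418 rows. The hairpin of Mir667 had the highest GC content of the tested members, 62.0%, and that of Mir433 ranked 6, at 56.5%. Across the 26 members Pearson's r between GC content and excess was 0.53 and Spearman's rho 0.48, and across all 418 rows rho was 0.42. These are descriptions over rows that share the same 6 libraries. The part of GC content in the replicate difference was not tested.

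**Figure D4:**
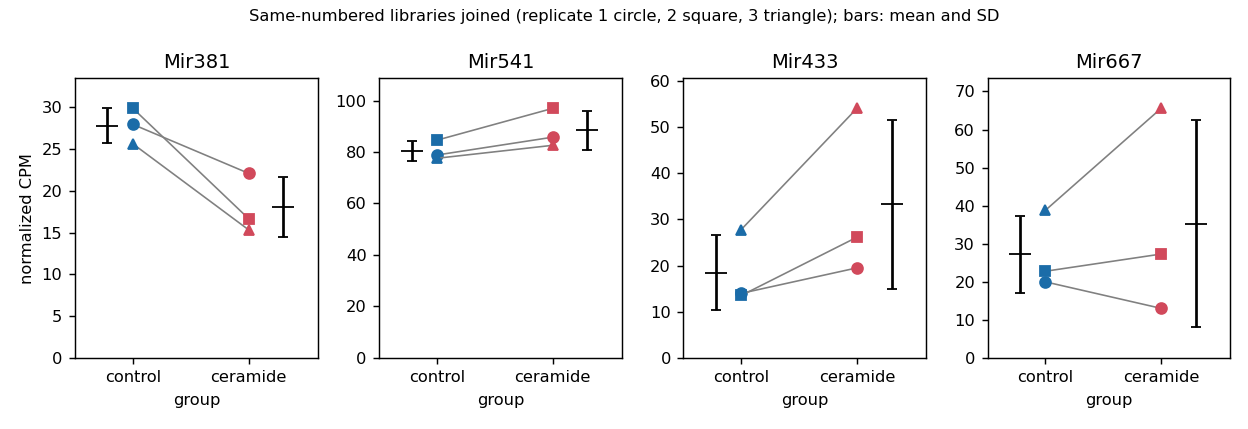
Normalized CPM of Mir381, Mir541, Mir433 and Mir667 in control and ceramide libraries, with libraries of the same replicate number joined. Bars give the mean and SD of 3 libraries. All 3 lines go down for Mir381 and up for Mir541 and Mir433, while for Mir667 the line of replicate 1 goes down and that of replicate 3 reaches 65.6 CPM.

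Without Mir433 and Mir667, an alternative chosen after seeing the data, the share of the locus was 0.0737%, 0.0728% and 0.0696% in the controls and 0.0627%, 0.0626% and 0.0620% with ceramide. The ceramide libraries were then closer together (0.0721% ± 0.00218 against 0.0624% ± 0.000372, exact permutation p = 0.1, the smallest possible).

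Other members with positive log2 fold changes did not pass the test. Mir341 had 4.99, 6.40 and 7.32 CPM in the controls and 7.80, 9.47 and 10.2 CPM with ceramide, without overlap, on 79 counts (log2 fold change 0.57, SE 0.35, edgeR adjusted p = 0.200). Mir494 had 24.9, 27.7 and 19.8 CPM against 45.5, 31.4 and 25.5 CPM (log2 fold change 0.44, SE 0.25, edgeR adjusted p = 0.245). Its ceramide replicate 1 stood above all other libraries, and replicate 3 was the lowest in both groups, unlike in Mir433. Mir679 had 9.98, 4.98 and 5.85 CPM against 5.20, 11.7 and 7.66 CPM, with no common order of the groups.

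The most abundant members had small log2 fold changes. Mir541 had 78.8, 84.6 and 77.6 CPM in the controls and 85.8, 97.0 and 82.6 CPM with ceramide. It was higher in each of the 3 numbered pairs, the groups overlapped, and the log2 fold change was 0.14 (SE 0.12, edgeR adjusted p = 0.416). Mir382 had 76.8, 94.6 and 92.2 CPM against 68.9, 78.8 and 66.4 CPM, lower in each pair (log2 fold change -0.30, SE 0.14, edgeR adjusted p = 0.171). Over the 26 members, 6 (23.1%) were higher and 12 (46.2%) lower with ceramide in all 3 pairs, against 34.9% and 37.3% of all rows tested. Mir329, which shares a seed with miR-362-3p, had a log2 fold change of 0.24 and Mir369 one of -0.27, while Gm24321 and Mir379 had -0.09 each. The edgeR adjusted p of these 4 was between 0.223 and 0.660. Mir411, which shares a seed with Mir379, had a log2 fold change of 0.14.

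**Figure D5:**
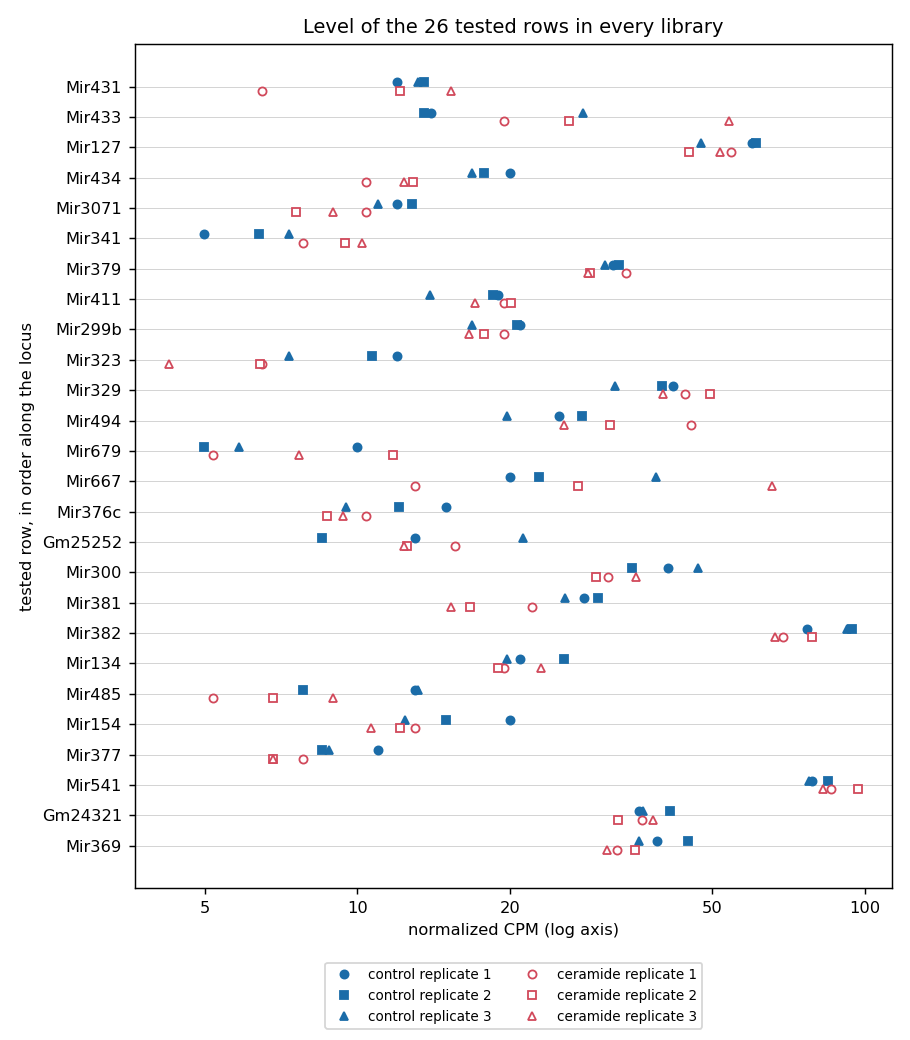
Normalized CPM (log axis) of the 26 tested rows in every library, in order along the locus, with filled symbols for control and open symbols for ceramide libraries and a shape for each replicate number. The groups separate for 7 rows, among them Mir381, and the triangles of replicate 3 lie to the right for Mir433 and Mir667.

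Mir337 and Mir299b were given with Mir381 as markers of the locus. Mir337 could not be tested, with 6.99, 7.11 and 5.85 CPM in the controls and 6.50, 5.68 and 5.11 CPM with ceramide, groups that overlapped. Mir299b had 20.96, 20.6 and 16.8 CPM against 19.5, 17.8 and 16.6 CPM, and the log2 fold change was -0.13 (SE 0.22, edgeR adjusted p = 0.638).

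Other imprinted miRNAs were present at very different levels. Mir335 had a mean of 14823 CPM, Mir296 of 4304 CPM and Mir298 of 1802 CPM, all above the 84.4 CPM of Mir541, whereas Mir675 had 7 counts in all and Mir483 had 3. Of the 3 that could be tested, 1 was called, Mir298, lower at a log2 fold change of -0.87 (edgeR adjusted p = 0.00810). Of all rows tested, 11.5% were called and 8.37% were called lower. Mir335 had 0.40 (edgeR adjusted p = 0.0380), under the fold threshold, and Mir296 had 0.02 (edgeR adjusted p = 0.941).

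Lists of miRNAs of other cells were read beside the locus. The summed level of 5 serum and blood miRNAs was 124 to 151 CPM in controls and 157 to 185 CPM with ceramide. Of the 5, 0 were called, against 11.5% of all rows tested. Mir122 and Mir223 had log2 fold changes of 0.39 and 0.58 (edgeR adjusted p of 0.0635 and 0.0553), and Mir144 had 0.39. Mir451a had 0.01 and Mir150 had -0.37. The 3 glial rows summed to 205 ± 8.31 and 146 ± 22.9 CPM, without overlap. Their difference lay in Mir338 (160 and 98.2 CPM), which was called lower, as were 8.37% of all rows, while Mir219a-1 had a log2 fold change of -0.12 and Mir219a-2 one of 0.61, neither of them called. The 10 neuronal rows summed to 14605 ± 1215 and 17497 ± 2304 CPM, with overlap, and this sum was carried by Mir218-2 (9113 and 12495 CPM, not called). Of the 10 rows 6 had negative log2 fold changes, the median was -0.26, and 1, Mir128-2, was called lower, against 8.37% of all rows. Mir128-1 had -0.55 (edgeR adjusted p = 0.00527), under the fold threshold. The rows Mir124a-1, Mir124a-2 and Mir124a-3 had 160, 159 and 159 counts, and Mir9-2 and Mir9-3 had 680 and 683. The 10 rows are therefore not 10 separate values. The 5 muscle rows gave 137 ± 14.8 and 151 ± 17.9 CPM with 0 of 4 tested called, against 11.5% of all rows. Mir133a-1 and Mir133a-2 had 251 counts each. The 11 rows of pluripotent cells gave 3.25 ± 0.640 and 2.07 ± 0.472 CPM, with 5 at 0 and none testable. The part of these differences in the values of the locus was not tested.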

How the data were processed

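Exosomal small RNA was sequenced with the QIAseq miRNA kit. According to the methods and the submitters' processing notes, the authors trimmed reads with Cutadapt 1.15, aligned them to GRCm38 with STAR 2.5.3a, and used GENCODE to count them per miRNA gene, and the deposited table holds these raw counts. The GENCODE release and the handling of strand, of reads with several alignments and of molecular identifiers are not given in the sources used here. Binomial intervals of shares cover counting error only. Of the 1973 rows, 1894 matched GENCODE M21.

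Counts were tested with edgeR 4.0.16 (R 4.3.3): TMM, filterByExpr (418 rows), quasi-likelihood fit with treatment as the only term, Benjamini-Hochberg over all rows. The SE is that of the F statistic, or that of counting error where larger. Alternatives were DESeq2 (version 1.42.0), limma-voom in limma 3.58.1, other scalings, filters, a replicate block, a lane term, joined rows and leaving out each library. DESeq2 is the tool that the study's methods name for differential expression. Single values were compared by exact permutation. In simulated counts with a true fold of 2 and no replicate or lane effect, the test called 166 of 190 changed rows and 1 unchanged row. The 190 were among 400 rows tested, whereas 48 of 418 rows were called in the data. The share found in the simulation therefore cannot be carried over to the data. Smaller changes and deviations shared by same-numbered libraries were not simulated. Libraries of the same replicate number deviated together from their group means (r over the 418 rows 0.58, 0.42 and 0.75). They were taken as pairs for the replicate block and the paired values, although over the 26 members alone r was 0.37, -0.04 and 0.70. Over these members r was also 0.43 for control 1 with ceramide 2 and 0.40 for control 2 with ceramide 1. The labels state no pairing, and these r come from the same counts that the paired values use.

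Segments were set by position. Named were the 3 markers, the 12 members with the highest level, every called member, the 5 with the most positive and the 5 with the most negative log2 fold change, the member at the median level and members sharing a seed with these. Mir377, Mir431, Mir134, the rows at 0, those opposite another gene and single rows of the lists were named beyond this rule, after their values were seen. The members, the lists (other imprinted loci, serum and blood, neurons, glia, muscle, pluripotent cells) and the rules were chosen with earlier results of these data known.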

Additional observations from a re-analysis of the deposited data

How the results depend on the processing

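The number of called members was 1 in the reported fit, which called 48 of 418 rows. It was 0 with DESeq2 size factors (47 of 418 rows called), upper-quartile factors (51 of 418), DESeq2 (43 of 418) and the lane term (29 of 418). It was also 0 with no filter (35 of 1058), a filter of 30 counts in 3 libraries (37 of 317) and joined rows (40 of 394). With the replicate block it was 2 (87 of 418). Leaving out 1 library gave 0 to 1 called members, with 28 to 55 rows called in all. The median log2 fold change of the members (-0.13) was negative under all 16 alternatives, at -0.0495 with DESeq2 size factors, -0.0522 with upper-quartile factors, -0.0530 with DESeq2, -0.204 with library size alone, -0.0306 with the filter of 30 counts, and -0.23 to -0.0552 without 1 library. The scalings moved all rows together. The median of the members minus that of all rows was -0.12 in the reported fit. It was -0.11 to -0.12 under the other scalings and DESeq2. Because a scaling shifts all rows alike, these values cannot show how stable this gap is. The choice of rows and libraries moved the gap more. It was -0.0659 with the filter of 30 counts, -0.0521 without control replicate 2 and -0.223 without control replicate 3. No member was part of a joined group, so the joining acted through the other rows tested.

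The difference in the share of the locus, -0.00760 points, was 3.96e-05 with DESeq2 size factors, -0.00366 with TMM factors (exact permutation p = 0.2), -0.00381 with the 3 rows of most counts taken out of the total (exact permutation p = 0.4), -0.00500 without the 3 highest members (exact permutation p = 0.2) and -0.00999 to -0.00592 without 1 library. The difference of the log2 ratio of Mirg to Rtl1 (-0.03) was 0.10 without ceramide replicate 3, 0.14 without Mir433 and Mir667, -0.13 without the highest row of each segment, and -0.11 to 0.10 over all libraries left out.

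For the 20 named members tested, 309 values were computed, of which 290 kept direction and side of the threshold, 12 lost a call (all for Mir381) and 1 gained one (Mir433, with the replicate block). The other 6 changed sign: Gm24321 (0.0182, lane term; 0.00026 without control replicate 2, in a range of -0.157 to 0.00026 without 1 library), Mir379 (0.0810, lane term), Mir667 (-0.62, lane term; -0.30 without ceramide replicate 3, in a range of -0.30 to 0.81) and Mir679 (-0.93, lane term). The cause was not tested, and the lane term rests on 1 pair of libraries. The replicate block changed no other call. Depth limits the rest: 32 of 58 members had too few counts to be tested.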
